A study of Mus musculus with 8 samples.

Results

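Hyaluronan is the large sugar polymer of the pericellular coat and of peritoneal fluid, and peritoneal mesothelial cells (MCs), the lining cells of the abdominal wall and organs, are among its sources. The genes described here were chosen by name for their place in hyaluronan metabolism, with earlier results of these data known. They are the 3 hyaluronan synthases Has1, Has2 and Has3, the precursor enzyme Ugdh, the hyaluronidases Hyal1 and Hyal2, the receptor Cd44 and the hyaluronan-binding protein Tnfaip6. All 8 had values, of 13687 genes measured.

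The 8 RNAseq libraries came from primary MCs of the abdominal wall of 2 kinds of littermates, WT mice and mice of the line B6.Cg-CAV1tm1mls/J that lack CAV1 (CAV1-/-, genotype label Cav-1-). CAV1 is the main structural protein of caveolae, membrane pits that flatten under tension, and the design asks how mechanical stretch and loss of CAV1 act on MCs. Confluent cultures of 2 animals per genotype were kept static or were stretched for 24 h, so that each of the 4 animals gave 1 static and 1 stretched culture and each of the 4 groups had n = 2. These numbers follow the sample labels, and the study's own text gives a different number of replicates. The deletion is constitutive and present in every cell of the animal, the cultures were expanded in serum before the experiment, and age was not given in the sources used here.

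The authors deposited TMM-normalized CPM, that is, reads per 1000000 library reads after edgeR's correction for library composition. Libraries held 9777738 to 21203938 reads, and all stretched libraries (15861571 reads or more) were deeper than all static libraries (14237503 or fewer). The smallest amount taken as detectable, 3 reads, equals 0.146 to 0.308 CPM by counting error only. Cav1 was at 763.7 and 274.9 CPM in static WT, 569.9 and 247.5 in stretched WT, 34.5 and 18.9 in static CAV1-/- and 20.04 and 12.8 in stretched CAV1-/- MCs, so each CAV1-/- library lay below each WT library. All 12 mesothelial markers were above 0 in every library, with a summed level of 2979 to 3792 CPM in WT and 914.7 to 1146 CPM in CAV1-/- cultures. The 11 leukocyte markers with values summed to 74.8 to 457.0 CPM in WT, to 299.0 and 330.4 CPM in the cultures of CAV1-/- replicate 2, and to 4713 and 4738 CPM in those of CAV1-/- replicate 1, where all 11 exceeded the other 6 libraries. The 8 fibroblast markers summed to 8521 to 11299 CPM in the cultures of replicate 1 animals and to 13378 to 20339 CPM in those of replicate 2 animals. Of 6 endothelial markers 3 had values, and they summed to 11.4 to 66.8 CPM. In bulk RNA, fewer cells of a type and less RNA per cell cannot be told apart.

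Hyaluronan is made at the plasma membrane by the HAS enzymes, which join UDP-glucuronic acid and UDP-N-acetylglucosamine and push the growing chain out of the cell. UGDH supplies the first of these sugars. HYAL2 at the cell surface and HYAL1 in lysosomes cut the chains, CD44 anchors them to the cell and links them to the actin cortex through ezrin, radixin and moesin, and TNFAIP6 (TSG-6) transfers heavy chains from inter-alpha-inhibitor onto hyaluronan. In the peritoneum the polymer lubricates the serosal surfaces and is deposited in wounds and adhesions.

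The genes lie apart in the genome except for the hyaluronidases (positions from GENCODE M21, build GRCm38). Has1 (ENSMUSG00000003665) lies on chromosome 17 from 17843323 to 17855205, Has2 (ENSMUSG00000022367) on chromosome 15 from 56665627 to 56694539, and Has3 (ENSMUSG00000031910) on chromosome 8 from 106870242 to 106884566. Ugdh (ENSMUSG00000029201) lies on chromosome 5 from 65413221 to 65435949. Hyal2 (ENSMUSG00000010047, 107567945 to 107572779) and Hyal1 (ENSMUSG00000010051, 107576927 to 107581710) are neighbours on chromosome 9. Cd44 (ENSMUSG00000005087) lies on chromosome 2 from 102811141 to 102901665, and Tnfaip6 (ENSMUSG00000053475) on the same chromosome from 52038009 to 52056686.

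The synthases are close relatives, which matters for reads of 61 bases. The longest run of bases that annotated transcripts of each pair share is shown here, because a read inside a longer run would fit both genes.
Has1 and Has2, 17 bases: tacttccgagagtggct
Has1 and Has3, 17 bases: cgtgaggtcatgtacac
Has2 and Has3, 23 bases: ggaggtgttggaggagatgtcca
Hyal1 and Hyal2, 14 bases: ctggcagtcattga
All 4 runs are shorter than a read. Overlap with other genes was larger. Hyal1 shares 1920 of its 3777 exon bases (50.8%) with Naa80 on the same strand, so its level is uncertain in that sense. Has3 shares 352 bases (5.52%) with Chtf8 and Has2 182 bases (4.30%) with the antisense RNA Has2os, both on the opposite strand, which counting without strand cannot separate. Naa80 and Has2os were not analysed here.

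The RefSeq set used (GRCm38.p6) held the promoter window, 250 bases before to 50 bases after the transcription start, of 6 of the 8 genes. Those of Has1, Tnfaip6, Hyal2 and Cd44 are printed. The first 3 carry a match to a motif searched, and Cd44 is the gene that stood apart between genotypes in every culture. The motifs were GGAATG (TEAD, the DNA partner of YAP), TGANTCA (AP-1), GTCTAGAC (SMAD) and TGACGTCA (the cyclic AMP response element, CRE, added after the Has1 sequence was seen), on both strands. Matches are in capitals.
Has1, chr17:17855139-17855438, minus strand: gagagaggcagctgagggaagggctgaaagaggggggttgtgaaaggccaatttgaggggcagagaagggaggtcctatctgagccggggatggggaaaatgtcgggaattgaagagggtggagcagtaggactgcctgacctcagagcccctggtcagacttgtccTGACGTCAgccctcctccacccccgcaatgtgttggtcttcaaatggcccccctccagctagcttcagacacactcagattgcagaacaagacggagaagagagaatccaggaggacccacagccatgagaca
Tnfaip6, chr2:52037863-52038162, plus strand: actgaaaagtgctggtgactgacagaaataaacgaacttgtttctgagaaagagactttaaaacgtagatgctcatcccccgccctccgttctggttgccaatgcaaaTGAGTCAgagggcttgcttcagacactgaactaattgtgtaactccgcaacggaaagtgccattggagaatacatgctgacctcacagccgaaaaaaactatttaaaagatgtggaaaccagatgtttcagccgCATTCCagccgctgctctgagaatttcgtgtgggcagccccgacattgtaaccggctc
Hyal2, chr9:107568913-107569212, plus strand: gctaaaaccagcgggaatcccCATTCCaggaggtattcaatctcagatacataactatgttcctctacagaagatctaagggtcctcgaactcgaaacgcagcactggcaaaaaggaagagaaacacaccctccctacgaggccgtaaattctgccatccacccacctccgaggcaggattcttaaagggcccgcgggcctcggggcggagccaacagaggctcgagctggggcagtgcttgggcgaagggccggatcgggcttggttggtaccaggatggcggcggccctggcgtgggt
Cd44, chr2:102901616-102901915, minus strand: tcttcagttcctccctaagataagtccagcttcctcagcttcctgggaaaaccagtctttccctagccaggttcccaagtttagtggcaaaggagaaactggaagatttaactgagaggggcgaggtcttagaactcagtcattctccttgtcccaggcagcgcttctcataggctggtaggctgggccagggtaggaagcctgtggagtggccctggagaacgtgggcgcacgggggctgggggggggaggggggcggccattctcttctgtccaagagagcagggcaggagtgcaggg
The Has1 window holds the CRE letters at position -83 (counted to the first letter, with -1 the base before the start), a match found in 1.80% of 32544 promoters of the same length. The Tnfaip6 window holds the AP-1 letters at -142 and the TEAD letters (on the opposite strand, read as CATTCC) at -8, found in 7.79% and 14.6% of promoters. The Hyal2 window holds the same TEAD letters at -229. The Cd44 window holds none of the 4 motifs. The SMAD letters, found in 0.215% of promoters, are in none of the 6 windows.

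Per kilobase of exon, the 8 genes spanned more than 2 orders of magnitude. Cd44 was highest with 67.7 ± 17.1 CPM per kb (SD over 8 libraries), followed by Ugdh with 45.2 ± 3.82. Has2 was at 15.8 ± 10.9 and Hyal2 at 14.6 ± 1.31 CPM per kb. Hyal1 (3.15 ± 1.51), Tnfaip6 (3.13 ± 1.58) and Has1 (2.46 ± 1.31) were lower, and Has3 was lowest with 0.240 ± 0.0406 CPM per kb. Neighbours in this order kept it in all 8 libraries for Ugdh over Has2, Hyal2 over Hyal1 and Has1 over Has3. Cd44 exceeded Ugdh in 7 of 8 libraries and Tnfaip6 exceeded Has1 in 6 of 8. Has2 and Hyal2 were in this order in only 4 of 8 libraries, as were Hyal1 and Tnfaip6, and neither pair was tested. Has2 was below Hyal2 in both static WT libraries (2.58 against 11.7 and 9.39 against 14.6). It was above Hyal2 in both stretched CAV1-/- libraries (17.7 against 15.9 and 39.7 against 14.3), and each other group was split.

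**Figure D1:**
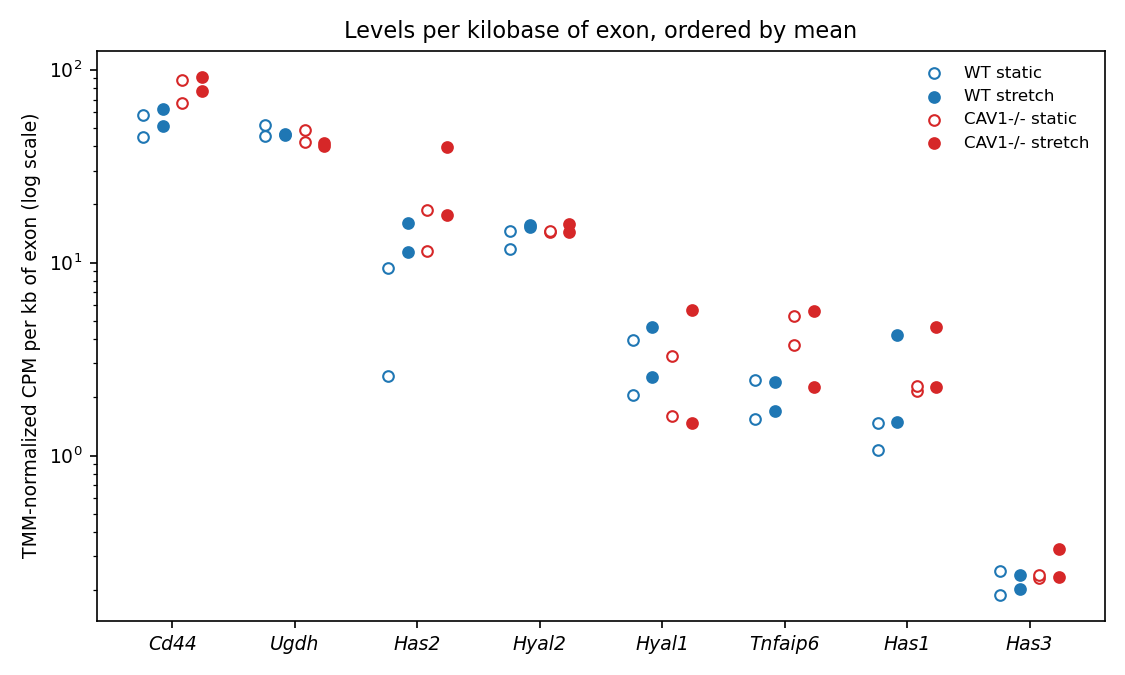
TMM-normalized CPM per kilobase of merged exons (log scale) for the 8 hyaluronan genes, ordered by mean, with 1 point per library (open, static; filled, stretch; blue, WT; red, CAV1-/-). Has2 spreads from 2.58 to 39.7 CPM per kb, while Ugdh stays between 40.02 and 51.4 and Hyal2 between 11.7 and 15.9.

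Has2 encodes the synthase that makes long hyaluronan chains in most mesenchymal cells, and it varied most of the 8 genes. It was at 10.9 and 39.8 CPM in static WT MCs and at 47.9 and 67.9 CPM in stretched WT MCs. It was at 48.5 and 79.3 CPM in static CAV1-/- MCs and at 74.9 and 168.1 CPM in stretched CAV1-/- MCs. The stretched WT cultures both exceeded the static WT cultures, both CAV1-/- groups exceeded the WT group of the same condition, and the highest library had 15.4 times the level of the lowest. The stretched culture exceeded the static culture of the same animal in 4 of 4 animals, 4.39-fold and 1.71-fold in WT replicates 1 and 2 and 1.54-fold and 2.12-fold in CAV1-/- replicates 1 and 2. Of all genes tested, 14.5% were higher on stretch in all 4 animals.

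By limma over all 13665 genes tested, the log2 fold change of Has2 on stretch, on the log2(CPM + 1) scale used for all log2 values here, was 1.40 in WT (SE 0.66, adjusted p = 1) and 0.85 in CAV1-/- MCs (SE 0.66, adjusted p = 1). Averaged over both genotypes it was 1.12 (95% interval -0.02 to 2.26, unadjusted p = 0.0524, adjusted p = 0.984). With the animal as a block in limma, that interval was 0.64 to 1.60 (adjusted p = 0.0598). The genotype by stretch interaction was -0.55 (95% interval -2.82 to 1.72), an interval that includes a larger response in either genotype. CAV1-/- over WT, it was 1.51 in static culture (SE 0.66, adjusted p = 0.647) and 0.96 under stretch (SE 0.66, adjusted p = 0.958). None of these passed the adjusted threshold of 0.05. Has2 was also higher in replicate 2 than in replicate 1 in all 4 groups, and the fibroblast marker sum had the same order in all 4 groups. On stretch, where Has2 was higher, that sum was lower in each animal. It went from 11299 to 9098 and from 17965 to 13378 CPM in WT replicates 1 and 2. In CAV1-/- replicates 1 and 2 it went from 8771 to 8521 and from 20339 to 18052 CPM. The part of fibroblasts in the Has2 values was not tested.

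Has1, a second synthase of the cell surface, was at 6.65 and 4.84 CPM in static WT and at 19.1 and 6.78 CPM in stretched WT MCs. In CAV1-/- MCs it was at 9.72 and 10.4 CPM in static and at 10.3 and 21.01 CPM in stretched culture. Stretched WT cultures lay above static ones, the higher value coming from replicate 1, and static CAV1-/- cultures lay above static WT cultures. The other groups overlapped. It was higher on stretch in 4 of 4 animals (as were 14.5% of all genes), by 2.88-fold, 1.40-fold, 1.06-fold and 2.02-fold in WT replicates 1 and 2 and CAV1-/- replicates 1 and 2. The log2 fold change on stretch was 0.90 in WT (SE 0.51) and 0.51 in CAV1-/- MCs (SE 0.51), both with an adjusted p of 1 by limma.

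Has3, which makes shorter chains, rested on 15 to 38 reads per library. It was at 1.61 and 1.21 CPM in static WT, 1.53 and 1.29 in stretched WT, 1.48 and 1.54 in static CAV1-/- and 1.504 and 2.08 in stretched CAV1-/- MCs. All groups overlapped, and the 4 log2 fold changes between groups ran from 0.00 to 0.21. A difference was not detectable at this depth.

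As a share of the summed synthase level per kb, Has2 made up 59.9% to 90.4% of the mRNA, Has1 8.46% to 34.2% and Has3 0.730% to 5.87%. The sum was 7.48 ± 4.496 CPM per kb in static WT, 16.7 ± 1.38 in stretched WT, 17.5 ± 5.25 in static CAV1-/- and 32.4 ± 17.3 in stretched CAV1-/- MCs (SD, n = 2). In WT replicate 1 the Has2 share was 59.9% static and 71.6% on stretch, the lowest 2 of the 8 libraries, and in the other 6 it was 82.7% or more.

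**Figure D2:**
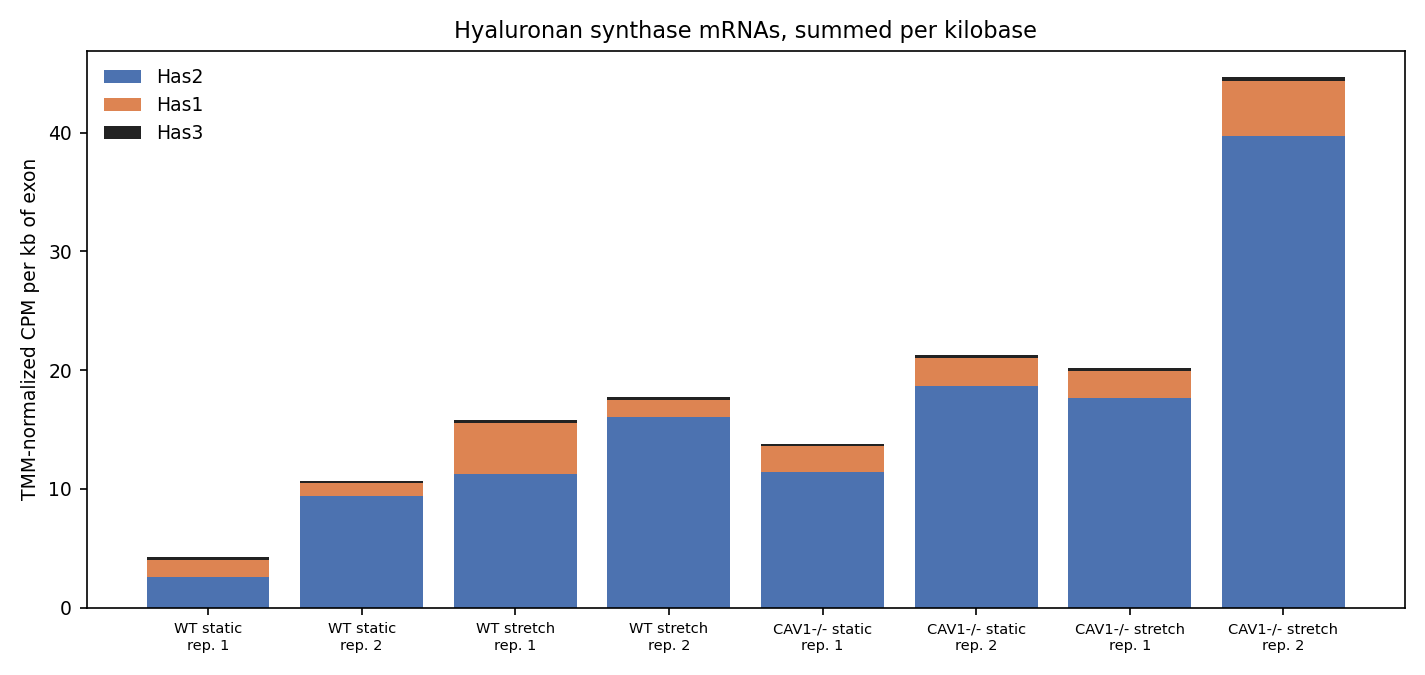
Stacked bars give Has2, Has1 and Has3 in TMM-normalized CPM per kilobase of exon in each of the 8 libraries (2 replicates per group). The summed height runs from 4.30 in static WT replicate 1 to 44.7 in stretched CAV1-/- replicate 2, and Has2 is the largest part of every bar.

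Ugdh, which oxidises UDP-glucose to UDP-glucuronic acid, had the smallest spread of the 8 genes, its highest library at 1.29 times its lowest. It was at 347.4 and 306.6 CPM in static WT and at 307.7 and 314.2 CPM in stretched WT MCs. In CAV1-/- MCs it was at 330.0 and 284.8 CPM in static and at 270.2 and 282.2 CPM in stretched culture. Both stretched CAV1-/- cultures lay below both static CAV1-/- and both stretched WT cultures, and the other groups overlapped. The log2 fold change was -0.15 on stretch in CAV1-/- MCs and -0.17 for CAV1-/- over WT under stretch (SE 0.13 each, adjusted p = 1 and 0.961 by limma). Ugdh shares 158 exon bases with Gm43552, which was not analysed here.

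Hyal2, the cell-surface hyaluronidase, was at 38.6 and 48.0 CPM in static WT, 51.8 and 50.5 in stretched WT, 47.5 and 48.0 in static CAV1-/- and 52.4 and 47.2 in stretched CAV1-/- MCs. Only the WT groups did not overlap, with both stretched cultures above both static ones (log2 fold change 0.24, SE 0.14, adjusted p = 1 by limma). Hyal1, the lysosomal hyaluronidase, was at 15.0 and 7.75 CPM in static WT and at 17.4 and 9.67 CPM in stretched WT MCs. In CAV1-/- MCs it was at 12.4 and 6.07 CPM in static and at 21.4 and 5.58 CPM in stretched culture. Every group pair overlapped, with replicate 1 above replicate 2 in all 4 groups. The leukocyte marker sum was likewise higher in replicate 1 in all 4 groups, and its part in the Hyal1 values was not tested. Hyal2 exceeded Hyal1 by 2.81-fold to 9.69-fold per kb.

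Cd44, the main hyaluronan receptor, was at 396.0 and 303.3 CPM in static WT and at 421.4 and 344.7 CPM in stretched WT MCs. In CAV1-/- MCs it was at 601.7 and 452.3 CPM in static and at 525.5 and 623.0 CPM in stretched culture. All 4 CAV1-/- cultures lay above all 4 WT cultures, which held for none of the other 7 genes and for 3.86% of all genes tested. The log2 fold change of CAV1-/- over WT was 0.59 in static culture (SE 0.22, unadjusted p = 0.0359, adjusted p = 0.551 by limma) and 0.59 under stretch (SE 0.22, unadjusted p = 0.0367, adjusted p = 0.719). On stretch it was 0.14 in WT and 0.13 in CAV1-/- MCs, with 3 of 4 animals higher.

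CD44 is also carried by leukocytes, whose markers were highest in CAV1-/- replicate 1. Without both cultures of that animal the log2 fold change of Cd44 was 0.38 in static culture and 0.71 under stretch. These values rest on CAV1-/- replicate 2 alone in each CAV1-/- group. The part of leukocytes in the Cd44 values was not tested.

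Tnfaip6, an inflammation-induced matrix organiser, was at 2.66 and 4.20 CPM in static WT and at 2.91 and 4.13 CPM in stretched WT MCs. In CAV1-/- MCs it was at 6.43 and 9.05 CPM in static and at 3.88 and 9.58 CPM in stretched culture. In static culture both CAV1-/- cultures exceeded both WT cultures, and under stretch the groups overlapped because CAV1-/- replicate 1 was at 0.604 times its static level. The log2 fold change of CAV1-/- over WT was 0.99 in static culture (SE 0.42, adjusted p = 0.635 by limma) and 0.68 under stretch (SE 0.42, adjusted p = 0.950). Without both cultures of CAV1-/- replicate 1, which leaves replicate 2 alone in each CAV1-/- group, these were 1.204 and 1.24. On stretch it was 0.04 in WT and -0.27 in CAV1-/- MCs, with 2 of 4 animals higher.

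**Figure D3:**
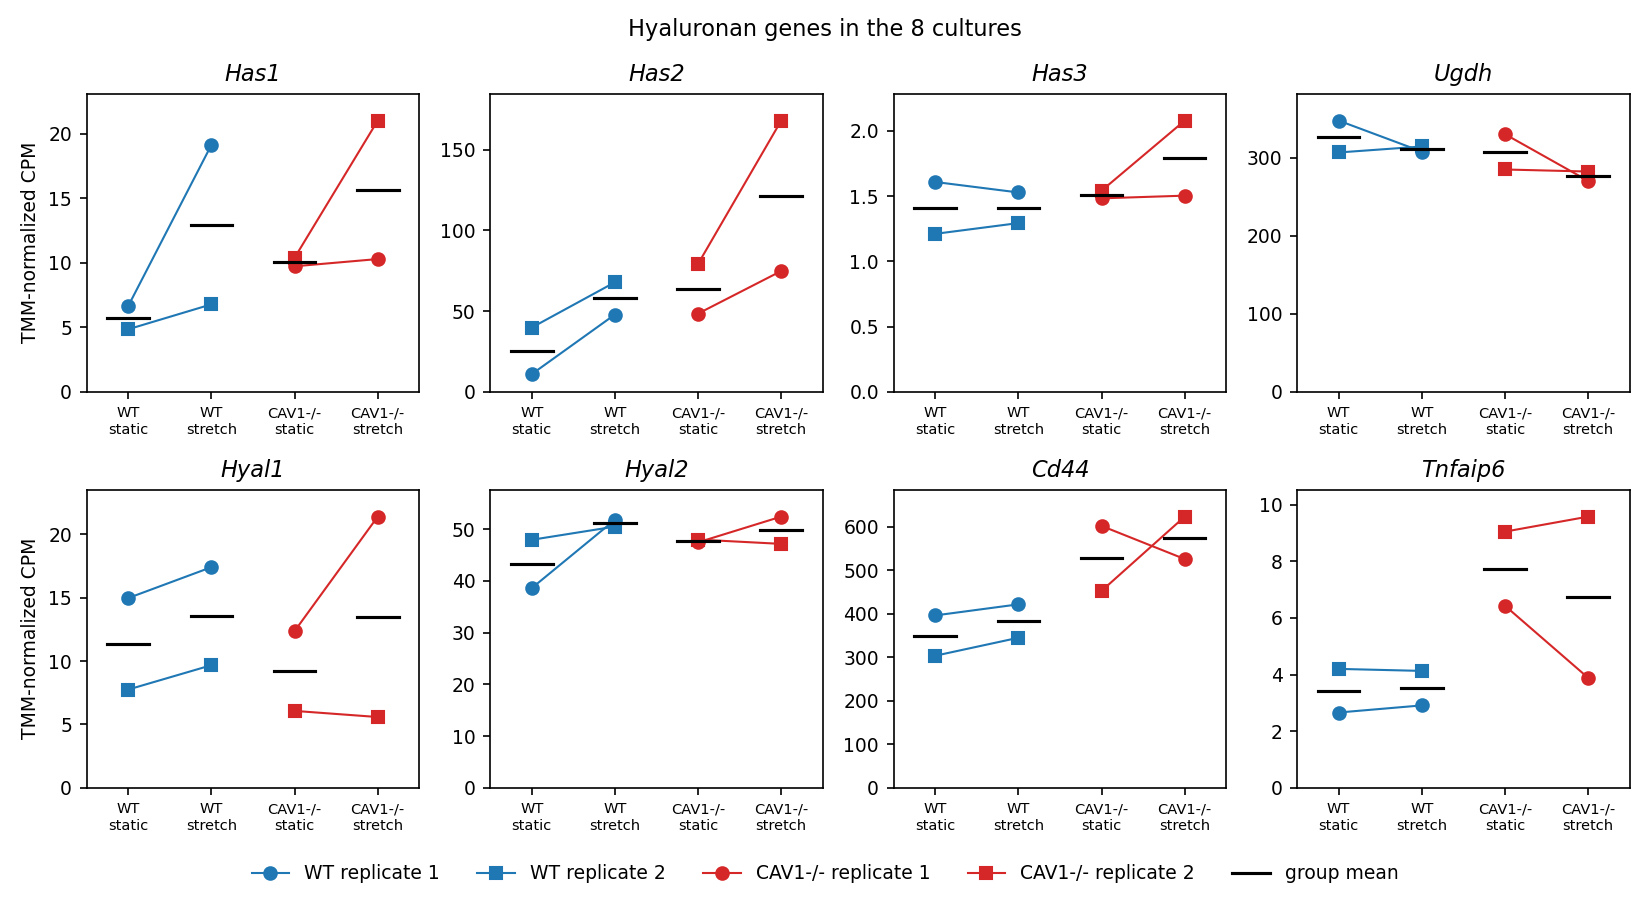
TMM-normalized CPM of the 8 hyaluronan genes in each culture. Lines join the static and stretched culture of the same animal (circles, replicate 1; squares, replicate 2), and black bars are group means (n = 2). Has1 and Has2 are higher on stretch in 4 of 4 animals (as are 14.5% of all genes). Cd44 is higher in every CAV1-/- culture (452.3 CPM or more) than in every WT culture (421.4 CPM or less), as are 3.86% of all genes.

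Over the 8 genes together, stretch gave 7 positive and 1 negative log2 fold change in WT (median 0.19, against -0.02 over all genes) and 6 positive and 2 negative in CAV1-/- MCs (median 0.14, against 0.00). CAV1-/- over WT gave 6 positive and 2 negative in static culture (median 0.37, against -0.01) and 5 positive and 3 negative under stretch (median 0.27, against 0.00). With non-overlapping groups, stretched WT was higher for 3 of 8 (Has1, Has2 and Hyal2, against 13.9% of all genes), and stretched CAV1-/- was lower for 1 of 8 (Ugdh, against 11.9%). Static CAV1-/- was above static WT for 4 of 8 (Has1, Has2, Cd44 and Tnfaip6, against 16.1%). Stretched CAV1-/- was above stretched WT for 2 of 8 (Has2 and Cd44, against 14.6%) and below it for 1 of 8 (Ugdh, against 15.9%). The 8 genes were chosen with earlier results of these data known, so these shares do not make a test of the set. By limma 0 of the 8 genes passed the adjusted threshold in any of the 6 comparisons, in which 0% of all genes passed for stretch and 0.0732% and 0.0585% for genotype in static and stretched culture. At an unadjusted p of at most 0.05, Cd44 was the only one of the 8 in either genotype comparison (8.17% and 6.26% of all genes). None was there on stretch in WT (2.27% of all genes), in CAV1-/- MCs (2.09%) or averaged over both (4.73%), nor for the interaction (0.483%). Pairing the cultures by animal in limma changed this. With that block the unadjusted p was at most 0.05 for Has1 and Has2 on stretch in WT (14.5% of all genes), for Has2 in CAV1-/- MCs (13.3%), and for Has1 and Has2 averaged over genotypes (21%). None passed after adjustment, the closest being Has2 averaged over genotypes (adjusted p = 0.0598). The quasi-likelihood test of edgeR and DESeq2, run on the recovered reads, also gave 0 of 8 in each comparison. With 2 cultures against 2, an exact permutation test cannot give a two-sided p below 0.333, and with 4 pairs not below 0.125.

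**Figure D4:**
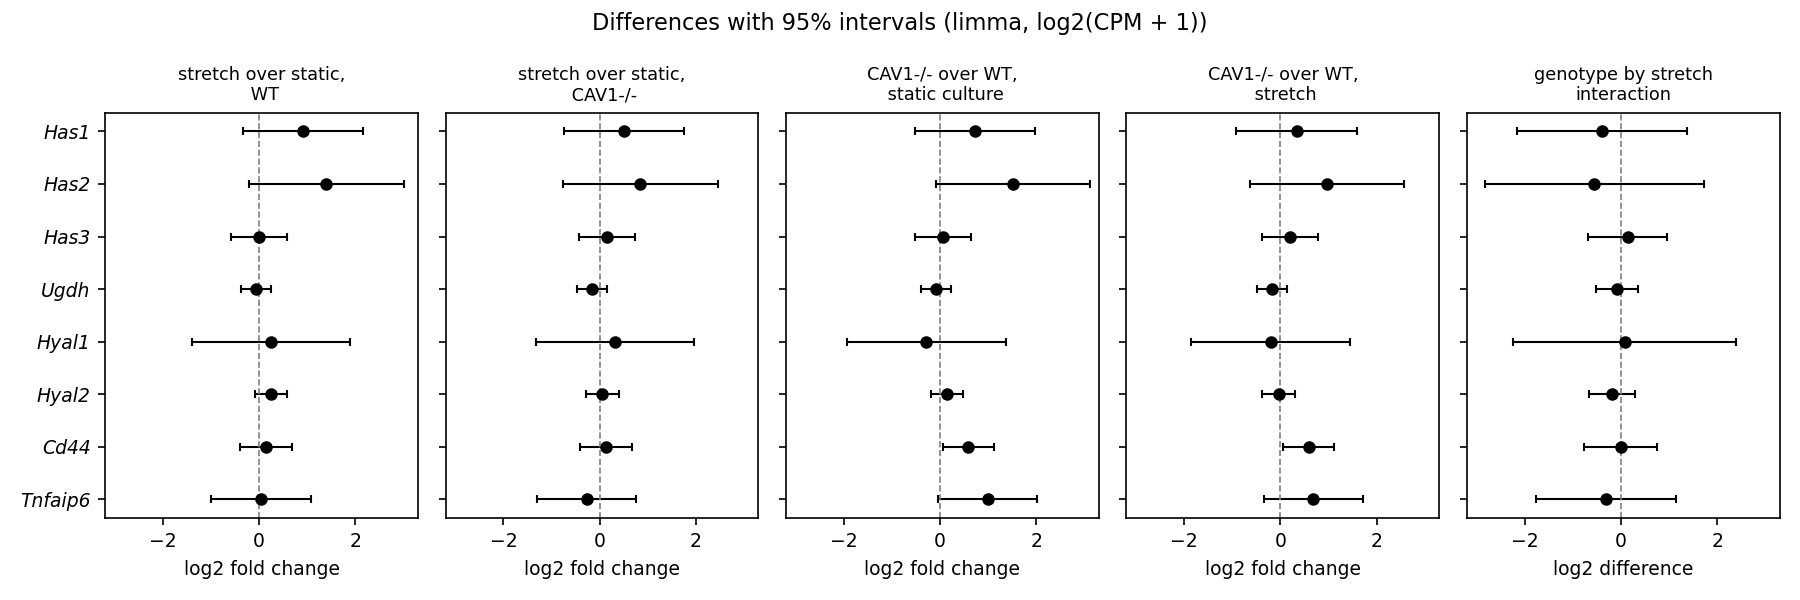
Log2 fold changes of the 8 hyaluronan genes on the log2(CPM + 1) scale, with 95% intervals from limma, for stretch over static in each genotype, CAV1-/- over WT in each condition and the genotype by stretch interaction. Every interval spans 0 except those of Cd44 for genotype, which start at 0.05 in both conditions and do not pass the adjusted threshold. These intervals are from the fit without a block. With the animal as a block (not drawn), Has2 on stretch lay above 0 (0.71 to 2.08 in WT, 0.16 to 1.53 in CAV1-/- MCs). Has1 on stretch in WT did so too (0.19 to 1.62), and none of these passed the adjusted threshold.

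The genes whose level followed Has2 most closely over the 8 libraries were Itgb3 (integrin beta 3, Pearson r = 0.987), 5730559C18Rik (0.982) and Pi4k2b (0.982). Itgb3 ran from 18.5 CPM in static WT replicate 1 to 262.1 CPM in stretched CAV1-/- replicate 2, the same libraries that were lowest and highest for Has2. Closest to Tnfaip6 were Mreg (0.978), Trps1 (0.966) and Tuba1a (0.965), and closest to Has1 were Mphosph6 (0.965), Psma4 (0.962) and Yipf5 (0.957). These are the highest of 13665 correlations over 8 libraries that share animals, and they are given as a description.

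Of 52 other genes of the hyaluronan pathway, listed by role, 31 had values and were tested. By limma 0 of the 31 passed the adjusted threshold in any comparison. At an unadjusted p of at most 0.05, 1 was higher and 1 lower on stretch in WT (against 2.27% of all genes in either direction), 0 and 2 in CAV1-/- MCs (2.09%), 1 and 2 for genotype in static culture (8.17%) and 0 and 3 under stretch (6.26%). On stretch 20 were higher and 11 lower in WT (median log2 fold change 0.03, against -0.02 over all genes, of which 46.8% were higher), and 22 higher and 9 lower in CAV1-/- MCs (median 0.09, against 0.00 and 49.97%). CAV1-/- over WT, 18 were higher and 13 lower in static culture (median 0.16, against -0.01 and 47.8%), and 15 higher and 16 lower under stretch (median -0.03, against 0.00 and 49.99%).

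The precursor enzymes, which make UDP-glucose and UDP-N-acetylglucosamine, were higher on stretch for 8 of 8 in WT (median 0.21, against 46.8% of all genes), of which 6 had groups apart (13.9% of all genes), and for 6 of 8 in CAV1-/- MCs (median 0.07, against 49.97%), none apart. The interaction was negative for 8 of 8 (median -0.17, against 0.01 over all genes, of which 52.6% were positive) and passed for none. Each interaction value contains the WT response, so it is not independent of the WT count. Ugdh, which is not in this set, had log2 fold changes on stretch of -0.07 in WT and -0.15 in CAV1-/- MCs (interaction -0.08). In this set Gfpt2, an entry enzyme of the hexosamine pathway, was at 205.5 and 135.0 CPM in stretched WT and at 71.0 and 93.5 CPM in stretched CAV1-/- MCs (log2 fold change -1.02, SE 0.29, adjusted p = 0.481). The 2 groups did not overlap, as for 15.9% of all genes in this direction, and this was part of the rule for naming it.

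Cemip, a hyaluronan-binding protein needed for the breakdown of hyaluronan outside lysosomes, had the largest log2 fold changes on stretch of the 31. It was at 252.0 and 252.2 CPM in static WT and at 69.2 and 92.4 CPM in stretched WT MCs. In CAV1-/- MCs it was at 105.7 and 192.5 CPM in static and at 11.3 and 62.4 CPM in stretched culture. All 4 animals were lower on stretch (as were 16.9% of all genes), and every CAV1-/- culture was below both WT cultures of the same condition. Static and stretched groups did not overlap in either genotype, which was part of the rule for naming Cemip. Averaged over genotypes the log2 fold change was -2.004 (SE 0.52, unadjusted p = 0.00808, adjusted p = 0.984). With the animal as a block Cemip fell, with an adjusted p of 0.0291 (1.47% of all genes passed in that fit), and DESeq2 on the recovered reads without a block gave 0.0492, while edgeR's quasi-likelihood test did not call it.

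Ptx3, which crosslinks hyaluronan with TNFAIP6-transferred heavy chains, was at 9.58 and 64.5 CPM in static WT, 7.54 and 31.05 in stretched WT, 68.6 and 75.9 in static CAV1-/- and 8.01 and 23.6 in stretched CAV1-/- MCs. It was lower on stretch in 4 of 4 animals, as were 16.9% of all genes. Averaged over genotypes the log2 fold change of Ptx3 was -1.48 (SE 0.72, adjusted p = 0.984 by limma). With the animal as a block the adjusted p was 0.0413, in a fit where 1.47% of all genes passed. By genotype the log2 fold change was -0.67 in WT, where the groups overlapped, and -2.30 in CAV1-/- MCs (SE 1.02 each). Ezr, the ezrin that links CD44 to actin, was at 1052 and 796.8 CPM in static WT, 625.2 and 617.0 in stretched WT, 294.2 and 386.1 in static CAV1-/- and 204.1 and 249.7 in stretched CAV1-/- MCs. It was lower on stretch in 4 of 4 animals, as were 16.9% of all genes. Averaged over genotypes the log2 fold change of Ezr was -0.57 (SE 0.15, adjusted p = 0.984 by limma). With the animal as a block its adjusted p was 0.0340, in the same fit where 1.47% of all genes passed. CAV1-/- over WT its log2 fold change was -1.44 in static culture (SE 0.21, adjusted p = 0.0945) and -1.46 under stretch (SE 0.21, adjusted p = 0.136), with all CAV1-/- cultures below all WT cultures (as for 5.88% of all genes). Ezr is abundant in mesothelium, whose marker sum was also lower in every CAV1-/- culture, and the part of that in the Ezr values was not tested.

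Vcan, the hyaluronan-binding proteoglycan versican, was at 163.6 and 287.6 CPM in static WT and 396.2 and 649.7 CPM in static CAV1-/- MCs (log2 fold change 1.22, SE 0.62, adjusted p = 0.721). Under stretch it was at 315.3 and 429.1 CPM in WT and at 296.7 and 1040 CPM in CAV1-/- MCs, and the groups overlapped (log2 fold change 0.59). Stab1, an endocytic hyaluronan receptor of macrophages and sinusoidal endothelium, was at 0.937 and 0.924 CPM in stretched WT and at 5.87 and 1.92 CPM in stretched CAV1-/- MCs, the higher value in the replicate 1 animal with the high leukocyte marker sum, whose part in this value was not tested. Esrp2, an epithelial splicing factor that acts on Cd44 transcripts, was at 17.8 and 21.6 CPM in static WT and at 7.33 and 11.2 CPM in static CAV1-/- MCs (log2 fold change -1.03, SE 0.23, adjusted p = 0.225). Under stretch it was at 18.2 and 16.5 CPM in WT and at 8.98 and 7.88 CPM in CAV1-/- MCs (log2 fold change -0.96, SE 0.23, adjusted p = 0.364 by limma). The mesothelial marker sum was also lower in every CAV1-/- culture, and its part in the Esrp2 values was not tested. The deposited values are per gene, so Cd44 isoforms were not measured.

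**Figure D5:**
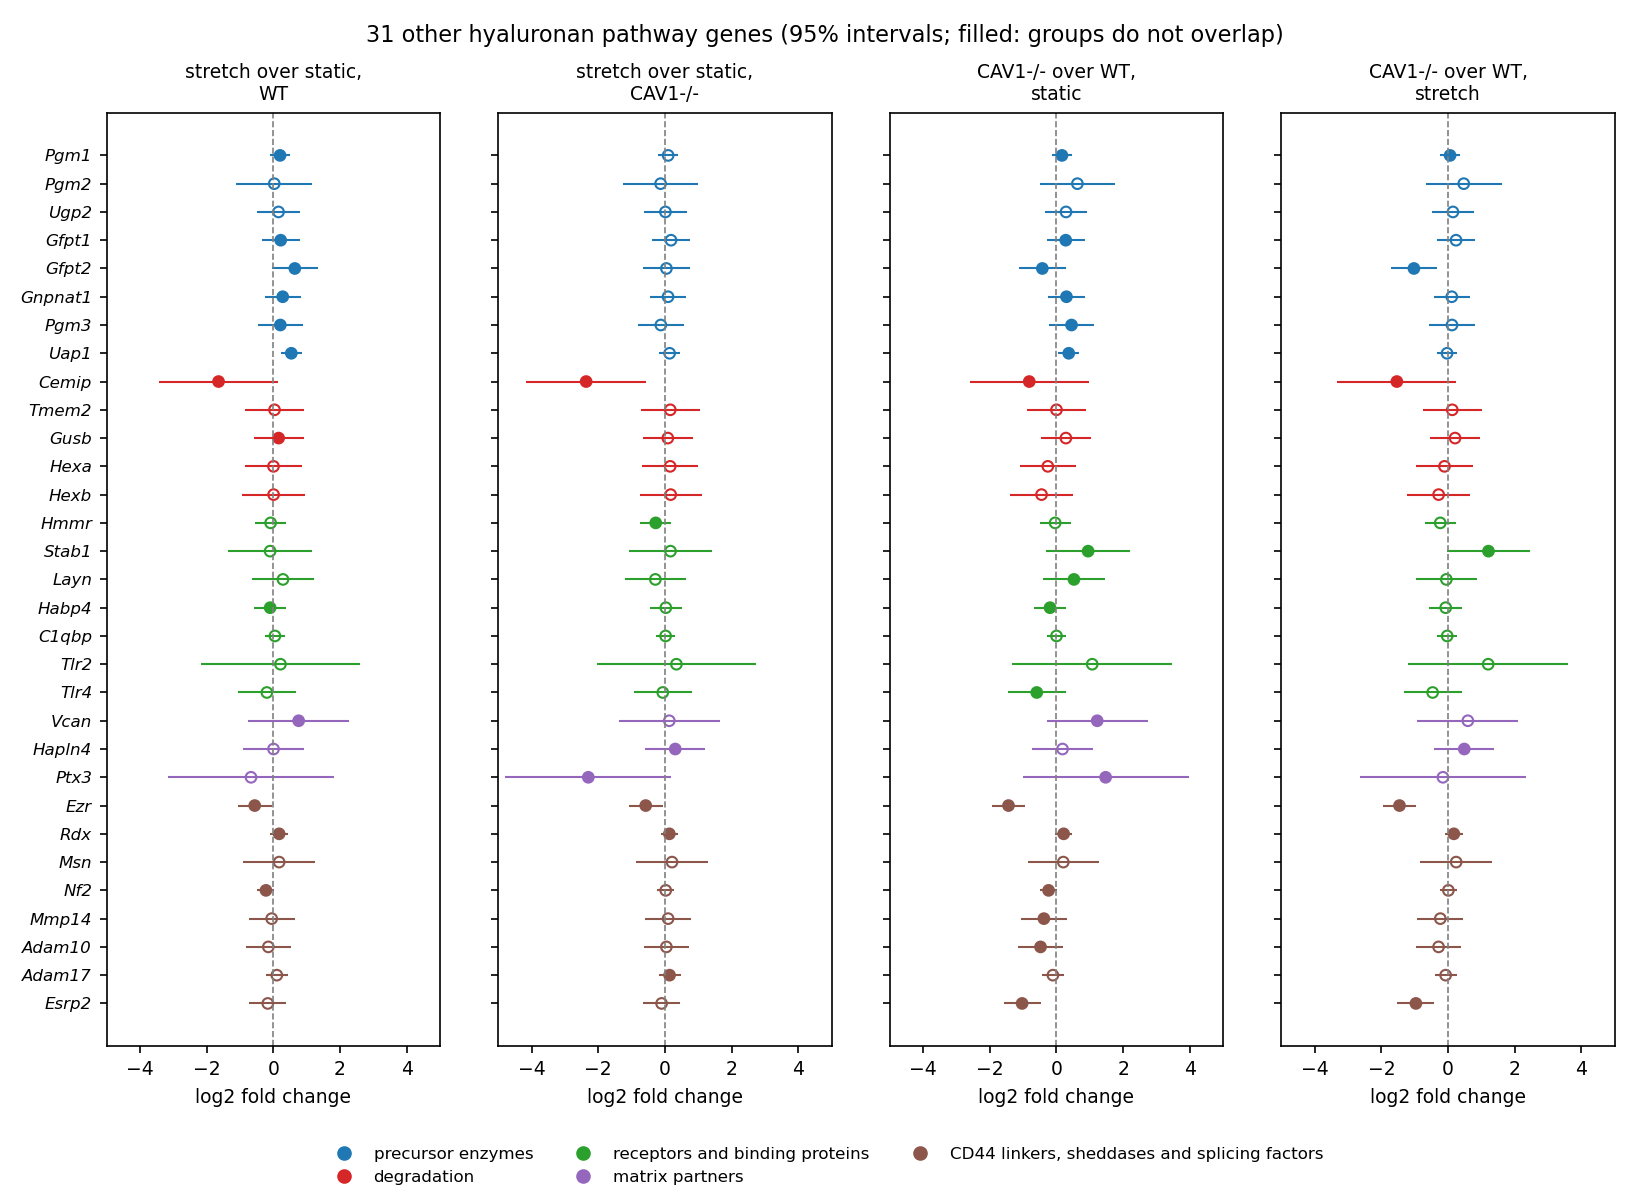
Log2 fold changes of the 31 other hyaluronan pathway genes with 95% limma intervals in 4 comparisons, coloured by role, filled where the 2 groups do not overlap. The points for Cemip lie left of 0 in all 4 panels, and those of Ezr lie left of 0 with narrow intervals, at -1.44 and -1.46 for genotype.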

How the data were processed

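RNA was sequenced as single reads of 61 bases from poly(A) libraries made with a kit that does not mark strand. Per the labels and the study's methods, the authors called bases with CASAVA, removed adaptors with cutadapt and, against the GRCm38 transcriptome, estimated counts per gene with RSEM. The deposited signal is TMM-normalized CPM from edgeR for 13687 genes, after the authors left out genes with low values. Each value is a whole multiple of 1 constant per library, so reads were recovered (100% of values whole, tolerance 0.01 reads), with totals of 9777738 to 21203938 per library. Floors (3 reads) cover counting error only. The intervals of log2 fold changes come from limma and rest on the spread between cultures.

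The deposited values were used with a pseudocount of 1 on the log2 scale. Genes reaching 1 CPM in 2 or more of the 8 libraries (13665) were fitted together by limma (3.58.1, R 4.3.3; eBayes with intensity trend, 1 mean per group, no block, 4 residual degrees of freedom), and p-values were adjusted over all of them by Benjamini-Hochberg at 0.05. Without a block, p-values rest on the spread between the 2 cultures of a group, pooled over the 4 groups. The static and stretched cultures of an animal then count as independent, although there were only 2 animals per genotype. With the animal as a block, p-values for stretch rest on how much the stretch response differed between animals. Alternatives were pseudocounts of 0.1 and 5, no filter, a mean of at least 5, median-of-ratios rescaling, edgeR (4.0.16) and DESeq2 (1.42.0) on the recovered reads, a replicate block, and each culture, or both cultures of CAV1-/- replicate 1, left out. The block was the animal for stretch and the interaction, since the labels give both cultures of an animal the same number. Deviations from the group means correlated at r = 0.703 between WT static and stretched cultures of the same animal and at r = 0.850 in CAV1-/-. For genotype, blocks were replicate numbers, shared by different animals. The fits were tested on simulated data.

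The 8 genes, the 52 pathway genes and the marker lists were chosen with earlier results of these data known. Pathway genes were named where they passed the adjusted threshold, or where groups did not overlap and the log2 fold change was at least 1 in size. Calls made only with the animal block were added after the values were seen. For each of the 8 genes whose highest group mean was over 2 times its lowest, the 3 genes with the highest Pearson r were named. Levels were compared between genes per kilobase of merged exons (GENCODE M21, in which 13597 gene identifiers were found).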

Additional observations from a re-analysis of the deposited data

How the results depend on the processing

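Of 48 log2 fold changes of the 8 hyaluronan genes (8 genes in 6 comparisons), 21 kept their sign under every alternative run and 27 changed it under at least 1. None passed the adjusted threshold under any alternative that kept all 8 libraries. Some alternatives could not change a sign. The filters and the block left the log2 fold changes as they were. Leaving out a culture of a group that was not compared also left the value as it was. The values that kept their sign include Has2 in every stretch and genotype comparison, Cd44 and Tnfaip6 for genotype in both conditions, and Has1 on stretch. The size of the Has2 values depended on single cultures. With 1 culture left out, Has2 on stretch ran from 0.51 to 2.28 in WT and from 0.27 to 1.42 in CAV1-/- MCs. For genotype it ran from 0.63 to 2.40 in static culture and from 0.39 to 1.54 under stretch. With both cultures of CAV1-/- replicate 1 left out, the sign turned on stretch in CAV1-/- MCs for Hyal1 (-0.10), Hyal2 (-0.025) and Tnfaip6 (0.074), on stretch averaged over genotypes for Tnfaip6 (0.056), and for the interaction of Has1 (0.047), Hyal1 (-0.35), Cd44 (0.32), Tnfaip6 (0.036) and Ugdh (0.056). With DESeq2 it turned for Hyal1 for genotype under stretch (0.0017). The cause was not tested. Leaving out 1 culture at a time turned the sign of 27 values, whose ranges follow. On stretch in WT they ran from -0.12 to 0.12 for Has3, -0.19 to 0.68 for Hyal1, -0.055 to 0.33 for Cd44, -0.22 to 0.29 for Tnfaip6, and -0.16 to 0.0203 for Ugdh. On stretch in CAV1-/- MCs they ran from -0.0049 to 0.29 for Has3, -0.56 to 1.205 for Hyal1, -0.017 to 0.13 for Hyal2, -0.072 to 0.34 for Cd44, and -0.82 to 0.29 for Tnfaip6. For genotype in static culture they ran from -0.054 to 0.18 for Has3, -0.74 to 0.18 for Hyal1, -0.0066 to 0.30 for Hyal2, and -0.20 to 0.016 for Ugdh. For genotype under stretch they ran from -0.35 to 1.02 for Has1, -1.09 to 0.68 for Hyal1, and -0.11 to 0.035 for Hyal2. On stretch averaged over genotypes they ran from -0.00052 to 0.15 for Has3, -0.16 to 0.73 for Hyal1, and -0.39 to 0.16 for Tnfaip6. For the interaction they ran from -1.08 to 0.29 for Has1, -1.44 to 0.34 for Has2, -0.0088 to 0.29 for Has3, -0.81 to 0.96 for Hyal1, -0.21 to 0.20 for Cd44, -0.86 to 0.25 for Tnfaip6, and -0.19 to 0.025 for Ugdh.

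The number of all genes past the adjusted threshold depended on the test. It was 0 on stretch in WT, 0 on stretch in CAV1-/- MCs, 0 on stretch averaged over genotypes, 10 and 8 for genotype in static culture and under stretch, and 0 for the interaction. With DESeq2 these were 3, 7, 39, 309, 238 and 0, and with the quasi-likelihood test of edgeR 2 genes passed for genotype in static culture. Leaving out 1 culture gave 0 to 8 genes for genotype in static culture (0 without either static WT culture, 1 or 2 without a stretched CAV1-/- culture or static CAV1-/- replicate 1, 5 without static CAV1-/- replicate 2) and 0 to 7 under stretch (0 without either stretched CAV1-/- culture or stretched WT replicate 2, 3 without a static WT culture, 5 without stretched WT replicate 1), and leaving out both cultures of CAV1-/- replicate 1 gave 0 in both. The cause was not tested.

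With the replicate block, 1 gene passed on stretch in CAV1-/- MCs, 201 on stretch averaged over genotypes, and 246 and 110 for genotype in static culture and under stretch. For genotype the block joins different animals that share only a number (r = 0.522 in static culture and 0.484 under stretch). The pairing by animal moved Has2 averaged over genotypes to an adjusted p of 0.0598 and changed no call among the 8 genes. Under the block Ezr passed for genotype in static culture (adjusted p = 0.0373), as it did with DESeq2 in both conditions (4.19e-07 and 2.39e-07), and Esrp2 passed with DESeq2 in static culture (0.0356). Has3 and Stab1 had no value with a mean of at least 5. The fewest reads lay behind Has3 (15 to 38 per library) and Tnfaip6 (38 to 175).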
